A study of Nothobranchius furzeri with 68 samples.

Results

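The livers of young male turquoise killifish (Nothobranchius furzeri, an African fish with a short natural lifespan) heterozygous for aprt were compared between fasted and fed animals by RNA sequencing of polyadenylated RNA. The libraries were chosen by their titles, which gave 4 fed and 4 fasted males, 8 of the 68 libraries of the study and 8 of its 41 livers. All 8 fish were 6.5 weeks old, male and labelled aprt heterozygous (Het), so the heterozygous genotype is shared by both groups and is not what differs between them. The labels do not describe the allele or how many founder animals it came from. Fed fish had food ad libitum, fasted fish had none for 24 h, and all livers were taken in the morning. aprt encodes adenine phosphoribosyltransferase, which makes AMP from adenine. For reference, the same contrast was taken in young wild-type (WT) males of the same age (3 fed, 3 fasted) and in old Het males of 15 weeks (4 fed, 3 fasted), none of which share a library with the young Het fish. Every tested gene of the liver entered the comparison, 17406 of the 25065 genes in the count table.

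A fed liver stores glucose and fat and makes sterols and the proteins of blood plasma, which are folded and glycosylated in the endoplasmic reticulum (ER) and exported. In fasting, mammalian liver lowers insulin and sterol regulatory element-binding protein (SREBP) signaling, raises FoxO, glucocorticoid and PPAR-alpha target genes, and turns to fatty acid oxidation and amino acid breakdown. The gene groups below follow those roles.

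Values per fish are CPM (a gene's reads relative to all reads of its library, scaled for library composition), in the order fish 52, 53, 54 and 55 for fed and fish 38, 39, 40 and 41 for fasted livers. Fold changes are log2, fasted minus fed, with a standard error (SE). The SE was calculated back from the fold change and the F statistic of the test named next, and adds nothing to that test. Adjusted p-values are from edgeR's quasi-likelihood test with Benjamini-Hochberg adjustment over all 17406 genes, and 0.05 was the threshold below which a change is described as called. CPM is not divided by gene length, so levels are compared between fish and not between genes.

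Total counts ran from 19949104 to 27398738 in the 8 libraries. The labelled tissue was checked against hepatocyte markers. Of the 5 genes that took the most counts, 4 were the plasma protein genes hpx (hemopexin), apoa1a (apolipoprotein A-I, LOC107395221), c3 (complement C3) and tfa (transferrin, LOC107383970), and the other was LOC107393029, which has no symbol. hpx averaged 53091 CPM in fed and 30659 CPM in fasted fish, and none of the 5 passed the test. The targeted gene aprt was at 14.1, 12.4, 17.3 and 14.0 CPM in fed fish and 8.25, 14.7, 10.5 and 11.2 CPM in fasted fish, and the groups overlapped (-0.38 ± 0.20, adjusted p = 0.222). In young WT males aprt was at 24.4, 23.7 and 13.3 CPM fed and 23.4, 18.7 and 16.5 CPM fasted.

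Some libraries stood apart from their group. Fed fish 53 lay closer to the fasted fish than the other fed fish on the first principal component, which took 43.0% of the variance (-19.3, against -46.7, -49.96 and -52.5 for the other fed fish and 19.5 to 73.7 for the fasted). On the second component, with 17.1% of the variance, fasted fish 41 stood apart at 65.4, where the others ran from -34.7 to 15.6. Fasted fish 38 lay farthest on the fasted side of the first component, at 73.7. Its 10 most abundant genes took 17.0% of counts, where the other 7 livers had 22.6% to 30.0%. Markers of pancreatic islets summed to 158.9 CPM in fasted fish 38 and 163.3 CPM in fasted fish 41, and to 0.812 to 10.2 CPM in the other 6. Exocrine pancreas markers ranged from 63.6 to 2439 CPM without following feeding (0 of 8 called). Muscle markers summed to 98.7 CPM in fasted fish 40 and to 35.2 to 54.0 CPM in the others (0 of 14 called), and erythroid and myeloid markers gave 0 calls of 10 and of 20. Myeloid markers summed to 56.3 CPM in fed fish 53 and to 19.0 to 28.2 CPM in the other young Het fish. Their mean log2 CPM was -0.06 in fish 53, within the -0.78 to 0.09 of those fish. Hepatocyte markers summed to 85746 CPM in fasted fish 38 and to 136013 to 199497 CPM in the other 7 (1 of 10 called). Counts that change strongly without these fish are given beside the lists below. In bulk tissue, fewer cells of a type and less RNA per cell cannot be told apart.

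Fasting changed 2352 genes, 13.5% of those tested, of which 1113 were higher (6.39%) and 1239 lower (7.12%). Among the called genes 2061 had no overlap between the fed and fasted fish, where 10.8% of all genes tested lay wholly higher and 11.8% wholly lower. Changes of at least 1 on the log2 scale were called in 433 rising and 639 falling genes, and the median over all genes tested was 0.017. The count was 1357 without fasted fish 38, 1466 without fed fish 54, 1501 without fed fish 52 and 1538 without fed fish 55. It was 768 without fasted fish 38 and 41 together, a setting chosen after the data were seen, in which 2 fasted fish remain. Of the 17771 genes tested there 400 were higher and 368 lower. The counts per list given below for that setting stand against these fewer calls over all genes. Within the groups the fish did not contribute alike. Fed fish 53 was the lowest of the fed fish in 742 of the 1239 falling genes and the highest in 569 of the 1113 rising genes. Fasted fish 38 was the highest fasted fish in 240 of the 433 larger rises, and fasted fish 41 the lowest in 265 of them.

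**Figure D1:**
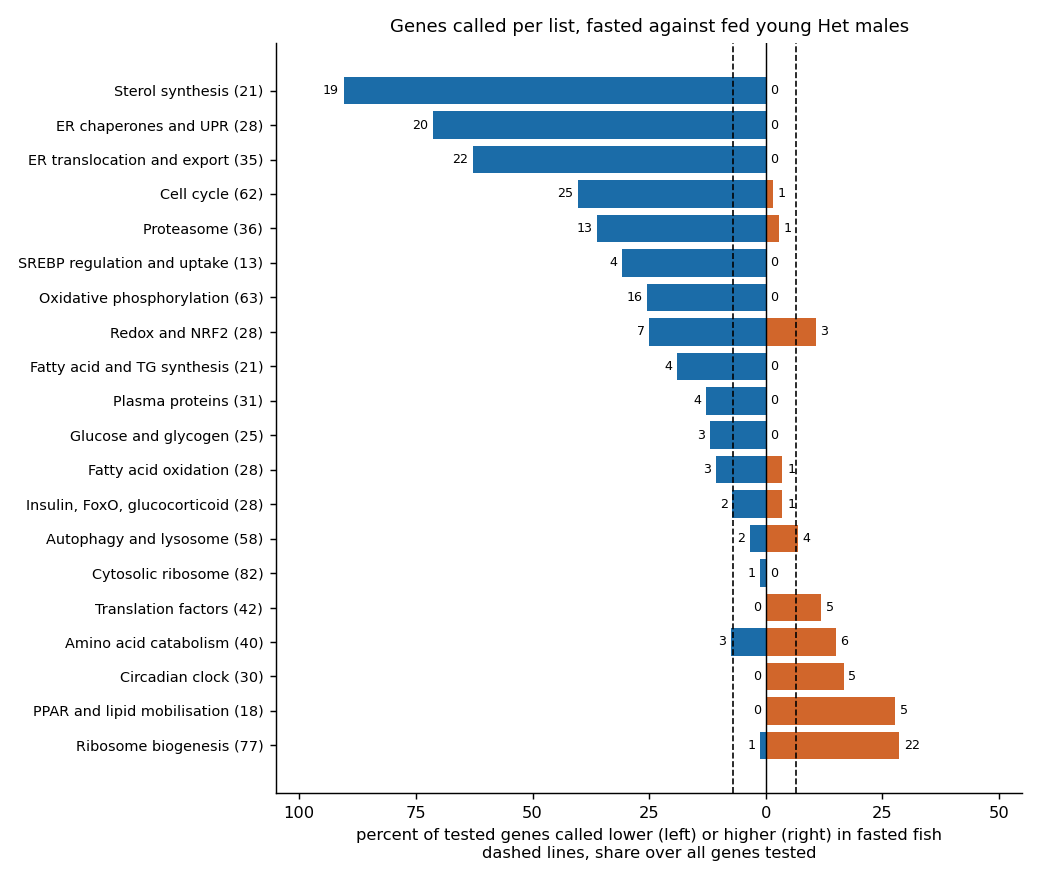
Share of tested genes called lower (left, blue) or higher (right, orange) in fasted young Het males for 20 gene lists, with the number tested in parentheses and the number called beside each bar; dashed lines mark the share over all genes tested (7.12% lower, 6.39% higher). Sterol synthesis and both ER lists had most of their genes lower, and ribosome biogenesis had the most genes higher.

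Sterol synthesis enzymes fell as a group: 19 of the 21 tested were called lower and 0 higher, with a median change of -2.89. mvk, the gene of mevalonate kinase, was at 29.9, 1.24, 19.1 and 22.6 CPM in fed fish and 0.737, 0.457, 0.713 and 0.388 CPM in fasted fish (-4.96 ± 0.84, adjusted p = 0.000241). aacs, acetoacetyl-CoA synthetase, which feeds ketone bodies into lipid synthesis, went from 169, 7.06, 109 and 301 CPM to 4.08, 4.80, 4.93 and 5.81 CPM (-4.90 ± 0.76, adjusted p = 0.000104). sqle, squalene epoxidase, went from 209, 7.13, 112 and 240 CPM to 3.77, 4.47, 6.23 and 5.89 CPM (-4.80 ± 0.90, adjusted p = 0.000725). In all 3 genes the groups did not overlap, yet fed fish 53 stood just above the fasted fish while the other fed fish were many times higher. For lss, lanosterol synthase, that fish overlapped them: fed livers had 131, 5.50, 82.9 and 178 CPM and fasted livers 1.47, 2.78, 2.11 and 5.93 CPM (-5.02 ± 0.90, adjusted p = 0.000488). For the same reason only 8 of the 21 genes separated the groups completely. Without fish 53, 20 were called and the median was -3.26.

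Falls were spread over the whole route from acetyl-CoA to cholesterol. At its start acat2, cytosolic thiolase, fell by 3.65 on the log2 scale (SE 0.54, adjusted p = 6.04e-05). In its middle fdps, farnesyl diphosphate synthase, changed by -4.37 and fdft1, squalene synthase, by -3.65, and idi1, isopentenyl diphosphate isomerase, by -2.16. Farther on, cyp51 (LOC107394621), which demethylates lanosterol, changed by -2.89. hmgcs1 (LOC107394923), HMG-CoA synthase, was not called: its fed fish had 832, 23.2, 299 and 688 CPM and its fasted fish 116, 88.4, 95.6 and 47.6 CPM (-2.40 ± 0.91, adjusted p = 0.0741), with fish 53 below every fasted fish. csgr16h14orf1, another of the largest falls of the liver, changed by -3.59 (adjusted p = 0.000597). Its role is not annotated in the sources used here.

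Of the 13 genes of SREBP regulation and lipoprotein uptake, 4 were lower and 0 higher (median -0.38). srebf2, which encodes the SREBP that drives sterol genes, was at 138, 31.6, 85.8 and 108 CPM fed and 31.9, 20.9, 28.5 and 17.8 CPM fasted (-1.87 ± 0.39, adjusted p = 0.0021). ldlr, the low-density lipoprotein receptor, went from 277, 249, 264 and 306 CPM to 91.9, 115, 117 and 160 CPM (-1.18 ± 0.25, adjusted p = 0.00183). Here fed fish 53 lay with the other fed fish, unlike in srebf2. mbtps2, the protease that cuts SREBP in the membrane, changed by -0.96 (adjusted p = 0.00331) and scap, its escort, by -1.15 (adjusted p = 0.0436, kept in 2 of 8 fits without 1 fish). srebf1 (-0.17, adjusted p = 0.838) and insig1, which holds SREBP in the ER (0.15, adjusted p = 0.901), did not pass. Of the 13 genes 2 were called without fasted fish 38 and 41 together.

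In fatty acid and triglyceride synthesis 4 of 21 genes were lower and 0 higher (median -0.15). fasn, fatty acid synthase, had 252, 16.4, 102 and 236 CPM in fed and 67.4, 28.3, 42.4 and 20.2 CPM in fasted fish (-1.93 ± 0.62, adjusted p = 0.0357, kept in 3 of 8 fits without 1 fish). Again fed fish 53 was below all fasted fish. The others called were acaca, acetyl-CoA carboxylase (-0.91), elovl6, a fatty acid elongase (-3.45), and slc25a1b (LOC107396014), the mitochondrial citrate carrier (-0.60). acaca overlapped between the groups, with 185 CPM in fed fish 53 and 202 CPM in fasted fish 39. It kept its call in 5 of 8 fits without 1 fish, and changed by -0.75 (adjusted p = 0.156) without fasted fish 38 and 41 together. Without fish 53 the list had 6 calls, 2 without fish 52 or without fish 55, and 1 without fasted fish 38 and 41 together.

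ER folding genes fell without the split among fed fish seen in sterol genes. Of 28 chaperone and unfolded protein response (UPR) genes, 20 were lower and 0 higher (median -1.2), all 28 had a fold change below 0 and 22 had no overlap. hsp90b1, the ER member of the HSP90 family, was at 1647, 791, 1031 and 1123 CPM in fed livers and 30.3, 56.0, 31.8 and 44.0 CPM in fasted livers (-4.83 ± 0.69, adjusted p = 3.37e-05). pdia4, a disulfide isomerase, went from 713, 385, 556 and 652 CPM to 56.1, 69.5, 55.4 and 60.9 CPM (-3.25 ± 0.42, adjusted p = 9.68e-06). pdia6, of the same family, went from 486, 235, 314 and 353 CPM to 26.5, 36.9, 29.9 and 34.9 CPM (-3.44 ± 0.45, adjusted p = 1.16e-05). For these genes fed fish 53 was the lowest fed fish but remained far above every fasted fish.

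Other members were alike. calr (LOC107393148), the lectin chaperone calreticulin, had 199, 63.3, 92.6 and 115 CPM fed and 4.42, 9.60, 6.18 and 5.50 CPM fasted, a change of -4.19. hyou1, an ER HSP70 relative, changed by -3.59 and manf, a secreted UPR target, by -3.24. hspa5, the central ER HSP70 known as BiP, had 532, 153, 155 and 148 CPM fed and 53.6, 23.9, 28.8 and 19.0 CPM fasted (-2.98 ± 0.80, adjusted p = 0.0121), and 1 of 8 fits without 1 fish lost the call. Fed fish 52 was well above the rest of its group in hspa5. sel1l (-1.55) and syvn1 (-1.60), which form the ubiquitin ligase complex of ER-associated degradation, and eif2ak3 (-1.13), the stress sensor PERK, also fell. Another stress sensor, ern1 (-0.14, adjusted p = 0.783), and the UPR transcription factor xbp1 (-0.49, adjusted p = 0.359) did not pass. The number of genes called lower ran from 16 to 19 over the 8 fits without 1 fish. Without fasted fish 38 and 41 together it was 12 (median -1.17).

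Translocation into the ER and export from it fell with the chaperones: 22 of 35 genes were lower and 0 higher (median -0.88), and 26 lay wholly lower. Without fasted fish 38 and 41 together 11 were called lower (median -0.79). stt3a, the catalytic subunit of oligosaccharyltransferase, was at 281, 206, 238 and 256 CPM in fed and 47.6, 65.3, 54.7 and 62.0 CPM in fasted fish (-2.10 ± 0.23, adjusted p = 4.22e-06). rpn2, of the same complex, went from 203, 160, 200 and 193 CPM to 41.4, 59.5, 47.4 and 59.2 CPM (-1.86 ± 0.23, adjusted p = 6.77e-06). The 4 fed livers were close together for both, fish 53 included. tram1, a translocon protein, changed by -2.26, and srp72, a subunit of the signal recognition particle, by -1.59. In a list of 42 genes of N-glycan assembly, chosen after the values were seen and therefore only a description, 28 were lower and 1 higher (median -0.90). It held alg6, a glucosyltransferase of the lipid-linked glycan, which went from 21.7, 8.95, 13.4 and 17.3 CPM to 1.11, 1.57, 1.1 and 1.67 CPM (-3.50 ± 0.54, adjusted p = 0.000104), and mogs, which trims the first glucose (-2.22). dolk, dolichol kinase, was the gene called higher (0.70, adjusted p = 0.038, kept in 3 of 8 fits without 1 fish).

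Among the cargo of this route, 4 of 31 plasma protein genes were called lower and 0 higher (median -0.33), while 13 lay wholly lower and 26 had a fold change below 0. Over all genes tested 7.12% were lower. The plasma protein count was 1 without fasted fish 38, 2 without fasted fish 40 or fed fish 55, and 0 without fasted fish 38 and 41 together (median -0.24). The hepatocyte marker list shares genes with this list, apoa1a and c3 among them. The low marker sum of fish 38 is therefore not independent of these genes, and the part of that fish's composition in the result was not tested. Among them apoeb (LOC107379395), apolipoprotein E, had 724, 272, 415 and 766 CPM in fed and 88.6, 223, 211 and 274 CPM in fasted fish, a change of -1.45 (adjusted p = 0.00902) with an overlap of fish 53 and fish 41. mttp, which loads lipid onto apolipoprotein B, went without overlap from 170, 107, 108 and 121 CPM to 56.4, 60.7, 58.9 and 49.3 CPM (-1.17 ± 0.28, adjusted p = 0.00613).

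**Figure D2:**
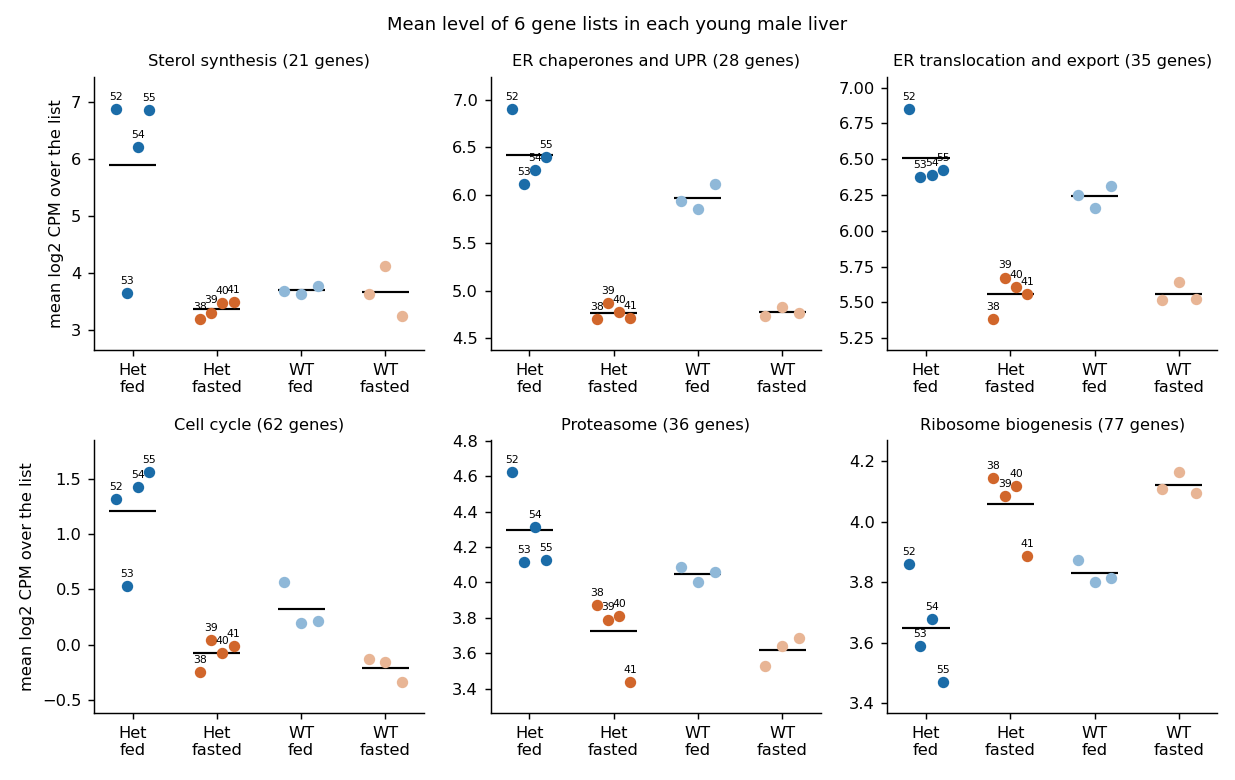
Mean log2 CPM over the tested genes of 6 lists in each young male liver; points are fish (Het fish are numbered), horizontal lines group means. Fed Het fish 53 lies with the fasted fish for sterol synthesis (3.64, against 3.20 to 3.49 fasted and 6.21 to 6.89 in the other fed fish) but with the fed fish for ER chaperones (6.12, against 4.71 to 4.87 fasted).

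Replication genes fell. Of 62 cell cycle genes, 25 were lower and 1 higher (median -1.36), and 40 lay wholly lower. Levels were low throughout. uhrf1, which maintains DNA methylation at replication forks, was at 12.5, 5.53, 11.2 and 11.5 CPM fed and 0.482, 0.784, 0.742 and 0.736 CPM fasted (-3.89 ± 0.66, adjusted p = 0.000265). mcm4, a subunit of the replicative helicase, went from 8.26, 1.93, 6.12 and 5.10 CPM to 0.425, 0.490, 0.327 and 0.310 CPM (-3.76 ± 0.76, adjusted p = 0.00143). Fed fish 53 was the lowest fed fish in both, and above every fasted fish. cdca7 (-3.97), the DNA polymerase genes pole (-3.86) and pola1 (-2.57), the licensing factor cdt1 (-2.03) and the S-phase activator e2f1 (-1.81) fell too, as did the proliferation marker mki67 (-2.09). cdk1, the mitotic kinase, did not pass (-0.61, adjusted p = 0.459), and pcna passed narrowly (-1.53, adjusted p = 0.0398, kept in 1 of 8 fits without 1 fish). The gene that rose was ccnd1, cyclin D1, from 2.26, 2.73, 1.26 and 2.30 CPM to 15.9, 5.49, 6.18 and 3.18 CPM (1.84, adjusted p = 0.0155). Without fasted fish 38 its change was 1.21 (adjusted p = 0.139), and it was not called without fed fish 54. The number called lower was 15 without fasted fish 38, fasted fish 40, fed fish 54 or fed fish 55, 16 without fasted fish 39, and 30 without fed fish 53. Without fasted fish 38 and 41 together it was 6, with a median of -1.43, where 368 of all 17771 genes tested were lower.

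Smaller falls covered the proteasome and the respiratory chain. Of 36 proteasome genes 13 were lower and 1 higher (median -0.49), with psma5 from 20.2, 15.2, 20.0 and 15.1 CPM to 6.04, 5.81, 6.23 and 5.74 CPM (-1.56 ± 0.35, adjusted p = 0.00304). psma1, another subunit of the core, changed by -1.14 and psmc4, an ATPase of the cap, by -1.41, while the ubiquitin receptor gene adrm1 rose by 0.45 (adjusted p = 0.0214, kept in 4 of 8 fits without 1 fish). The number lower was 6 without fed fish 52, 7 without fasted fish 38 and 5 without fasted fish 38 and 41 together (median -0.45). Of 63 nuclear genes of oxidative phosphorylation 16 were lower and 0 higher (median -0.24). uqcrq (LOC107375097), of complex III, went from 38.9, 37.1, 42.2 and 35.6 CPM to 21.1, 22.2, 21.8 and 20.8 CPM (-0.84 ± 0.12, adjusted p = 2.28e-05), and cox5aa (LOC107388450), of complex IV, and ndufa13, of complex I, changed by -0.74 and -0.63. These falls were small, and that of uqcrq was even between fish. Of the 63 genes 18 lay wholly lower. The number called lower was 7 without fasted fish 38 or fed fish 54, 9 without fasted fish 40 and 10 without fed fish 52. Without fasted fish 38 and 41 together it was 3 (median -0.23). Of 82 cytosolic ribosomal protein genes 1 was lower and 0 higher (median -0.02).

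**Figure D3:**
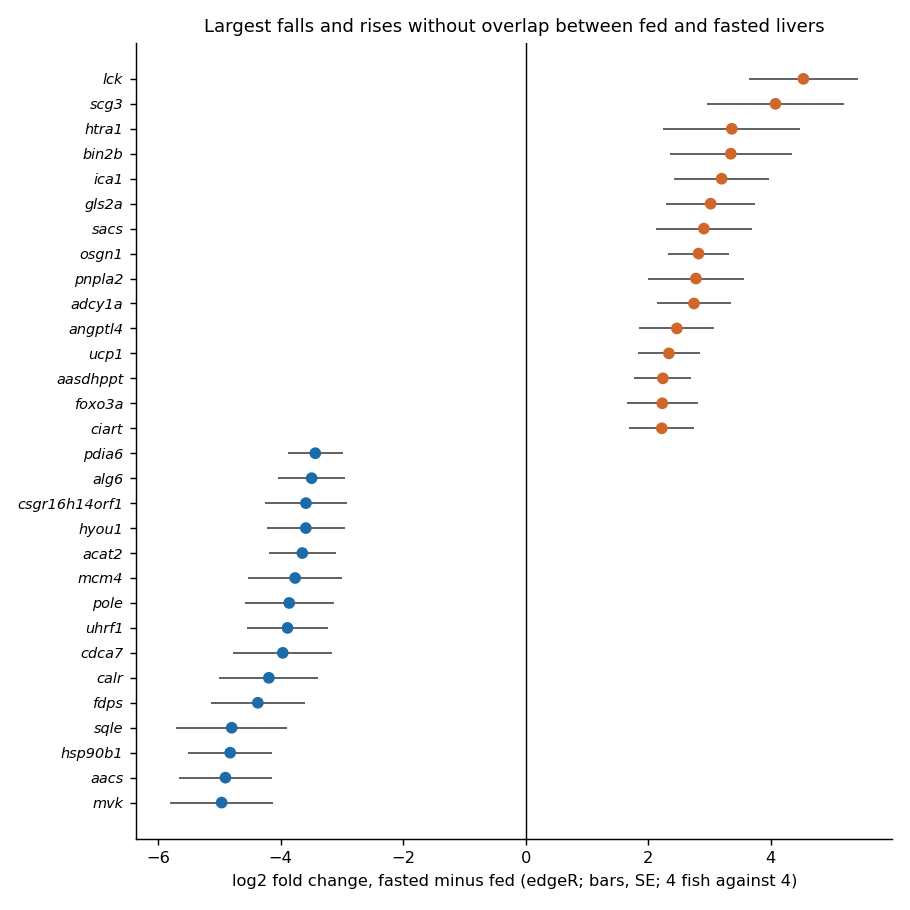
The 15 largest falls (blue) and 15 largest rises (orange) among called genes with a symbol, an average log2 CPM of at least 1 and no overlap between 4 fed and 4 fasted fish; points are log2 fold changes, bars SE. The falls run from mvk at -4.96 to pdia6 at -3.44, the rises from ciart at 2.22 to lck at 4.53.

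Genes of ribosome biogenesis moved the other way: 22 of 77 were higher and 1 lower (median 0.38), and 34 lay wholly higher. ddx18, a nucleolar RNA helicase, was at 38.4, 41.3, 40.7 and 32.3 CPM in fed and 93.2, 115, 102 and 122 CPM in fasted fish (1.5 ± 0.25, adjusted p = 0.000232). nop58, a core protein of the box C/D particles that guide rRNA methylation, rose from 25.9, 27.9, 23.9 and 21.0 CPM to 60.6, 59.8, 59.5 and 55.5 CPM (1.25 ± 0.23, adjusted p = 0.000572). The fish of each group were close together, with fish 53 and fish 38 inside their groups or near them. nol11, of the small-subunit processome, rose by 1.19 and ncl, nucleolin, by 0.81. imp3, also of the processome, fell by 1.04. The number called higher was 12 without fed fish 55, 13 without fasted fish 38 and 9 without fasted fish 38 and 41 together (median 0.37).

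Of 18 genes of PPAR signaling and lipid mobilisation, 5 were higher and 0 lower (median 0.48). pnpla2 (LOC107388678), adipose triglyceride lipase, was at 21.1, 53.7, 15.0 and 18.9 CPM fed and 306, 184, 191 and 64.7 CPM fasted (2.78 ± 0.79, adjusted p = 0.0178, kept in 4 of 8 fits without 1 fish). angptl4, an inhibitor of lipoprotein lipase, rose from 15.8, 12.7, 9.5 and 7.08 CPM to 65.1, 82.0, 76.9 and 25.3 CPM (2.47 ± 0.61, adjusted p = 0.00719). Fasted fish 41 was the lowest fasted fish in both. pdk2a (LOC107387611) and pdk3, kinases that switch off pyruvate dehydrogenase, rose by 2.01 and 1.35, and lipea (LOC107394884), hormone-sensitive lipase, by 1.37. The count was 2 without fasted fish 38 and 3 without fed fish 52, 54 or 55, and 2 without fasted fish 38 and 41 together. pdk4 (0.31, adjusted p = 0.193) and ppara (1.96, adjusted p = 0.121) did not pass. ucp1, a proton carrier of the inner mitochondrial membrane, had 273, 442, 187 and 285 CPM in fed and 2318, 1216, 1515 and 951 CPM in fasted fish (2.34 ± 0.51, adjusted p = 0.00273), without overlap.

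Fatty acid oxidation enzymes did not rise as a group: 1 of 28 was higher and 3 were lower (median -0.12), and without fasted fish 41 these were 3 and 4. Over all genes tested 6.39% were higher and 7.12% lower, so the counts with all fish were near those shares. The one that rose was cpt1b, a carnitine palmitoyltransferase that admits fatty acids to mitochondria, from 14.5, 11.1, 13.3 and 12.1 CPM to 30.4, 96.4, 76.7 and 26.0 CPM (2.17 ± 0.40, adjusted p = 0.00056). Fasted fish 39 and 40 were higher than fish 38 and 41, the islet-marked livers, and without those 2 fish the change was 2.76 (adjusted p = 0.000601). acox3, a peroxisomal oxidase, fell from 164, 130, 135 and 142 CPM to 62.2, 79.0, 72.5 and 64.3 CPM (-1.04 ± 0.17, adjusted p = 0.00016). echs1, enoyl-CoA hydratase (-1.21), and etfa, of the electron transfer flavoprotein (-0.45), also fell.

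Amino acid catabolism gave 6 rises and 3 falls among 40 genes (median 0.14). Over all genes tested 6.39% were higher and 7.12% lower, and the 3 falls were near the latter share. gls2a (LOC107391206), liver-type glutaminase, rose from 28.3, 35.5, 8.65 and 18.0 CPM to 340, 189, 121 and 84.2 CPM (3.02 ± 0.72, adjusted p = 0.00551). tat, tyrosine aminotransferase, had 164, 388, 90.6 and 127 CPM fed and 1097, 487, 551 and 565 CPM fasted (1.81 ± 0.44, adjusted p = 0.00592). Fed fish 53 was the highest fed fish and fasted fish 38 the highest fasted fish in both. gpt (LOC107383826), alanine aminotransferase, rose by 1.40 with an overlap of fish 53 and 41. prodha (LOC107373658), proline dehydrogenase, had 0.445, 2.26, 0.408 and 0.226 CPM fed and 65.4, 7.64, 21.8 and 0.426 CPM fasted (4.80 ± 1.33, adjusted p = 0.0149), so fasted fish 41 stayed at the fed level. arg2, arginase, was called (4.77, adjusted p = 0.0275) and kept that call in 3 of 8 fits without 1 fish. Without fasted fish 38 its change was 1.11 (adjusted p = 0.766). The falling genes included ass1 (-0.97) and asl (-0.61), the enzymes that make argininosuccinate and split it. psat1, of serine synthesis, was the 1 called gene among 24 of amino acid stress and serine synthesis (-3.19, adjusted p = 0.00247). The rises numbered 2 without fasted fish 38, fed fish 54 or fed fish 55, and 3 without fed fish 52. There were 1 rise and 0 falls without fasted fish 38 and 41 together.

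Clock genes rose in 5 of 30 cases and fell in 0 (median 0.25), with 2 rises without fasted fish 38 and 41 together (median 0.18). nr1d2b (LOC107383245), a REV-ERB repressor, was at 2.93, 4.22, 2.04 and 1.94 CPM fed and 9.5, 10.8, 10.4 and 10.2 CPM fasted (1.87 ± 0.25, adjusted p = 1.57e-05), with the fasted fish almost identical. ciart, a repressor of the CLOCK complex, rose from 2.45, 5.64, 2.65 and 1.89 CPM to 15.6, 12.6, 21.0 and 9.85 CPM (2.22, adjusted p = 0.00544). per2 (LOC107383961) changed by 3.06 (adjusted p = 0.00456), nr1d1 (LOC107395201) by 2.01 (adjusted p = 0.0105) and dbp by 1.47 (adjusted p = 0.0223, kept in 6 of 8 fits without 1 fish). per2 was at most 0.371 CPM in fed fish. The labels give a morning window of sampling but not the hour of each fish, so the part of sampling time in these changes was not tested.

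**Figure D4:**
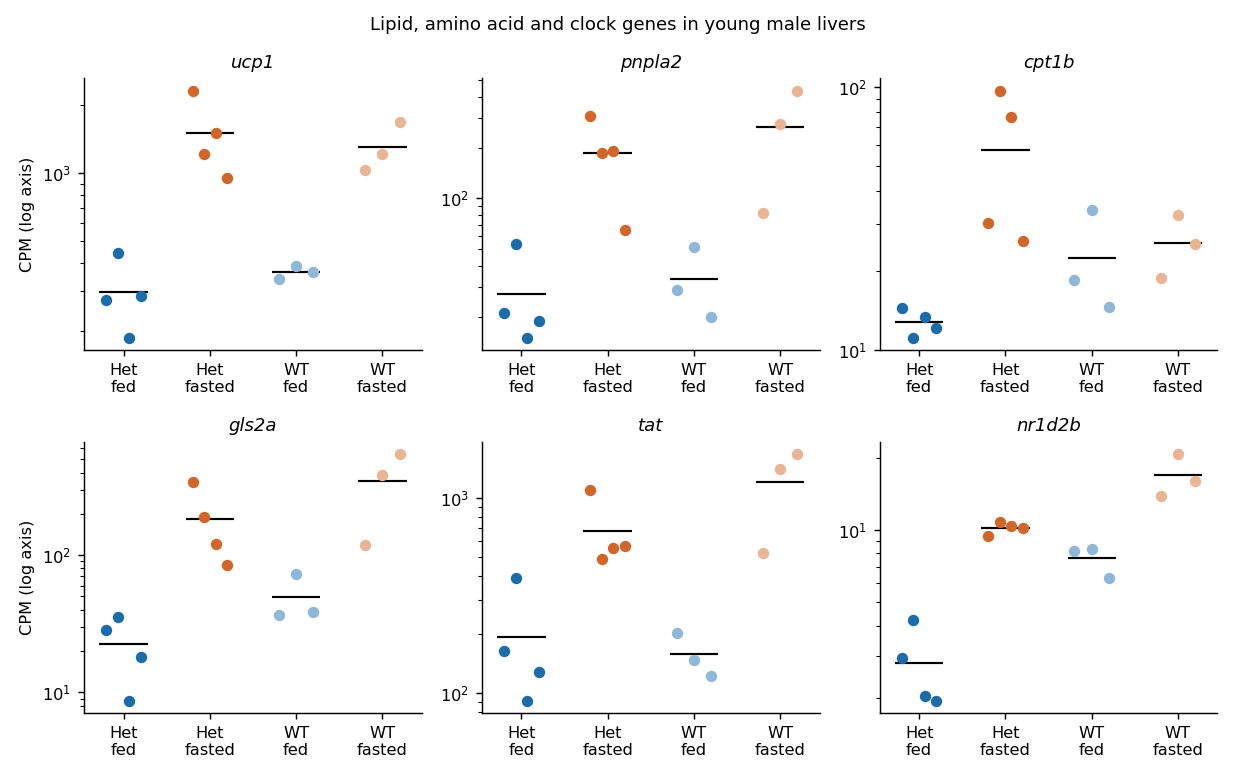
CPM (log axis) of 6 genes that rose in fasted young Het males, in each young Het and young WT male liver; points are fish, horizontal lines arithmetic means. For ucp1 the Het fish ran from 187 to 442 CPM fed and from 951 to 2318 CPM fasted, and for nr1d2b from 1.94 to 4.22 and from 9.5 to 10.8 CPM.

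Other regulators moved singly. tfe3a (LOC107391466), a transcription factor of lysosomal genes, rose from 36.6, 37.2, 34.3 and 36.3 CPM to 70.05, 73.5, 70.7 and 65.0 CPM (0.95 ± 0.20, adjusted p = 0.00186), with both groups tight and far apart. The autophagy and lysosome list itself gave 4 rises and 2 falls among 58 (median 0.24), near the share over all genes, and 2 rises and 0 falls without fasted fish 38 or fed fish 54. ctsb, cathepsin B, was one of the falls (-1.90, adjusted p = 0.0131). In the list of redox defense 3 of 28 were higher and 7 lower (median -0.08), and 2 in each direction without fasted fish 38 and 41 together. nfe2l2, the transcription factor NRF2, rose by 0.79 (adjusted p = 0.00859) and osgn1 (LOC107385065) by 2.82 (adjusted p = 0.000433), with gclm, of glutathione synthesis, at 1.57. sod1, copper-zinc superoxide dismutase, fell from 161, 130, 158 and 172 CPM to 83.7, 110, 90.3 and 98.6 CPM (-0.70 ± 0.15, adjusted p = 0.0028), and gss, glutathione synthetase, changed by -1.1. nr1h3, the sterol sensor LXR-alpha, had 40.5, 53.7, 45.3 and 45.1 CPM fed and 126, 75.0, 75.2 and 74.6 CPM fasted (0.93 ± 0.24, adjusted p = 0.00989), and 0.70 (adjusted p = 0.0724) without fish 38.

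Among the largest rises were genes outside these lists. sacs, the gene of sacsin, rose from 35.6, 48.0, 18.4 and 21.8 CPM to 453, 223, 188 and 67.1 CPM (2.91 ± 0.78, adjusted p = 0.0125). aasdhppt, which attaches phosphopantetheine to carrier proteins, rose from 9.52, 12.8, 5.63 and 7.08 CPM to 70.2, 33.1, 43.2 and 19.1 CPM (2.24 ± 0.47, adjusted p = 0.00189). Both have the order seen in pnpla2 and gls2a, with fish 38 highest and fish 41 lowest among the fasted. ica1 (3.20) and adcy1a (LOC107393050), an adenylyl cyclase (2.75), kept their calls in all 8 fits without 1 fish, whereas htra1 (3.36) and bin2b (LOC107385840, 3.35) kept them in 2 and 4. lck, known in mammals as a T-cell kinase, had the largest rise among called genes whose groups did not overlap and whose average log2 CPM was at least 1, from 0.445, 1.2, 0.734 and 0.271 CPM to 30.8, 9.44, 17.4 and 4.88 CPM (4.53 ± 0.89, adjusted p = 0.00112). It was the 1 called gene of 22 lymphoid markers, whose sum ran from 30.2 to 50.3 CPM in fed and from 31.7 to 69.3 CPM in fasted fish. scg3, a secretory granule protein of endocrine cells, went from 0.259, 0.655, 0.245 and 0.180 CPM to 14.1, 3.10, 3.47 and 2.56 CPM (4.08, adjusted p = 0.0139), and 3 of 13 islet markers were called. Without fish 38 and 41, the livers with islet markers, its change was 3.26 (adjusted p = 0.113).

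Several textbook fasting genes gave no clear response in these fish. Of 25 genes of glucose and glycogen metabolism 3 were lower and 0 higher (median -0.03), and 1 was called without fed fish 54 or without fasted fish 39, 40 or 41, and 0 without fasted fish 38 and 41 together. pck1, the first enzyme of gluconeogenesis, had 333, 495, 46.5 and 40.6 CPM fed and 901, 444, 313 and 42.3 CPM fasted, so the groups overlapped (0.89 ± 1.26, adjusted p = 0.714). gck, glucokinase, had 1.26, 0.473, 36.2 and 3.74 CPM fed and 2.01, 0.294, 0.178 and 1.09 CPM fasted (-3.53, adjusted p = 0.0375), so 1 fed fish, 54, carried most of the signal. Without it the change was not called. ugp2b (LOC107376056), which makes UDP-glucose for glycogen, went without overlap from 80.2, 59.7, 46.3 and 55.5 CPM to 34.7, 37.3, 34.5 and 26.5 CPM (-0.86 ± 0.19, adjusted p = 0.00247). Of 28 insulin, FoxO and glucocorticoid genes 1 was higher, foxo3a (LOC107391983, 2.23, adjusted p = 0.01), and 2 were lower (median -0.14). Over all genes tested 6.39% were higher and 7.12% lower, and the lists of this paragraph were not tested against those shares. foxo3a was not called without fasted fish 38 (1.73, adjusted p = 0.0657). The number lower was 1 without fed fish 53, 54 or 55 or fasted fish 38, and 0 without fasted fish 39 or 40, and 0 genes were called in either direction without fasted fish 38 and 41 together.

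The glucocorticoid-responsive gene fkbp5 (LOC107385161) was one of those lower. It had 8.89, 79.8, 29.4 and 6.68 CPM in fed and 4.45, 2.48, 3.44 and 2.13 CPM in fasted fish (-3.31 ± 1.09, adjusted p = 0.0399), and its adjusted p was 0.172 without fed fish 53. That fish was the highest fed fish also for sgk1 (96.1, 301, 49.1 and 37.0 CPM fed), foxo1 (12.4, 52.7, 28.7 and 14.8 CPM), klf9 (4.78, 22.8, 9.46 and 3.92 CPM) and igfbp1a (LOC107393048; 21.5, 89.8, 10.2 and 6.32 CPM), all of them glucocorticoid or FoxO targets in mammals. None of these 4 passed the test, and they were singled out after their values were seen. Fish 53 also had the lowest sterol genes and the highest tat and pnpla2 of the fed fish. The cause was not tested.

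Of 19 growth axis genes 1 was higher, socs2, an inhibitor of growth hormone signaling (1.5, adjusted p = 0.0136), and 2 were lower, igfals (-0.70) and stat5a (LOC107378442, -0.61). Without fasted fish 38 none of the 3 was called, and without fed fish 54 only igfals. Purine metabolism, the pathway of aprt, gave 3 rises and 3 falls among 41 genes (median 0.13), near the share over all genes. There were 6 rises without fasted fish 41. Without fed fish 53, and also without fasted fish 38 and 41 together, the list had 1 rise and 1 fall. With all fish the 3 rises were mtap, methylthioadenosine phosphorylase, which releases adenine (0.89, adjusted p = 0.00516), ppat, which starts purine synthesis (0.96, adjusted p = 0.016), and impdh2, of guanine nucleotide synthesis (1.29, adjusted p = 0.0329). mtap was at 7.26, 8.77, 8.52 and 6.81 CPM in fed and 15.0, 15.5, 15.9 and 11.6 CPM in fasted fish, and kept its call in all 8 fits without 1 fish. Of 14 AMPK subunit and kinase genes 2 were higher and 1 lower, and none without fasted fish 38. Of 42 translation factors 5 were higher and 0 lower, and 2 and 0 without fasted fish 38 and 41 together. Of 37 cytosolic and mitochondrial chaperones 4 were higher and 1 lower, against 0 higher and 20 lower among the ER chaperones. Without the same 2 fish the 37 genes gave 3 rises and 0 falls. Over all genes tested 6.39% were higher and 7.12% lower, and the lists of this paragraph were not tested against those shares.

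The response was then set against that of young WT males, which called 1854 genes (10.7% of those tested, with 6.51% higher and 4.14% lower). Islet markers summed to 206 CPM in WT fasted fish 32 and to 70.3 and 40.9 CPM in WT fed fish 45 and 47. In the other WT fish they summed to 1.33 to 10.8 CPM. Myeloid markers summed to 139 CPM in WT fed fish 45 and to 19.1 to 28.3 CPM in the others. The part of these cells was not tested. Of the young Het calls, 594 were also called in young WT, 25.3% of the Het list and 32.0% of the WT list, and 581 of these had the same direction. The difference between the responses itself passed for 267 genes (1.53%), 88 more positive (0.506%) and 179 more negative in Het (1.03%). That count ran from 98 without WT fasted fish 32 to 336 without Het fed fish 52, and was 564 when only the compared groups were fitted. ER genes fell in both: 13 of the 28 chaperones were lower in WT (median -0.85, against -1.2 in Het), and 0 differences passed. With 1.53% of all genes passing, a list of 28 holds few passes in any case, so the 0 does not show equal responses. hsp90b1 went in WT from 494, 600 and 625 CPM to 47.1, 46.5 and 43.4 CPM. The fasted fish of both genotypes were at one level, while every fed Het fish lay above every fed WT fish. Ribosome biogenesis (12 of 77 higher in WT) also gave 0 passing differences, with the same limit.

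Sterol genes differed. In WT 0 of 21 passed in either direction (median -0.05), and 9 of the 21 had a more negative response in Het. mvk was at 0.986, 0.784 and 1.68 CPM in fed WT males, the level of fed Het fish 53, and at 1.09, 1.45 and 0.487 CPM in fasted WT males. The difference was -4.79 ± 1.18 for mvk (adjusted p = 0.0331, kept in 5 of 14 fits without 1 fish), -5.04 ± 1.06 for aacs (adjusted p = 0.0104, kept in all 14) and -5.64 ± 1.26 for lss (adjusted p = 0.0154, kept in 10 of 14). It was -2.76 ± 0.60 for srebf2 (adjusted p = 0.0122) and -1.63 ± 0.37 for ldlr (adjusted p = 0.0177). The high sterol level of fed Het fish 52, 54 and 55 was not seen in any young fed WT male. In young fasted fish the list means overlapped (3.20 to 3.49 log2 CPM in Het, 3.25 to 4.11 in WT).

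A second set of genes rose in young WT but did not pass in young Het males. foxo4 (LOC107378306), a FoxO transcription factor, was at 19.5, 43.1, 27.3 and 30.2 CPM in fed and 34.2, 26.4, 34.5 and 34.8 CPM in fasted Het fish (0.11 ± 0.28, adjusted p = 0.854). In WT it rose from 7.64, 5.18 and 5.07 CPM to 44.8, 49.1 and 52.2 CPM (3.03), a difference of -2.92 ± 0.44 (adjusted p = 0.000576). All fed Het fish lay above all fed WT fish, and all fasted Het fish below all fasted WT fish. ccng2 (LOC107375093), the FoxO target cyclin G2, had 7.56, 12.3, 7.63 and 10.4 CPM fed and 6.49, 5.29, 5.91 and 9.42 CPM fasted in Het, and rose from 2.16, 1.60 and 1.74 CPM to 10.02, 19.1 and 14.9 CPM in WT, a difference of -3.48 ± 0.52 (adjusted p = 0.000494). insig1 went from 462, 537, 260 and 291 CPM to 399, 388, 440 and 488 CPM in Het and from 59.7, 64.5 and 122 CPM to 357, 1561 and 1688 CPM in WT (difference -3.73, adjusted p = 0.0108). pparg, a lipid-sensing nuclear receptor, differed by -2.95 ± 0.54 (adjusted p = 0.00316), and mfsd2a, a lysophospholipid transporter, by -3.89 ± 0.77 (adjusted p = 0.00599). These 5 differences held in all 14 fits without 1 fish, while that of foxo1 (-3.33, adjusted p = 0.0452) held in 3. Of the whole insulin, FoxO and glucocorticoid list, 10 of 28 were higher in WT, and 4 responses differed.

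**Figure D5:**
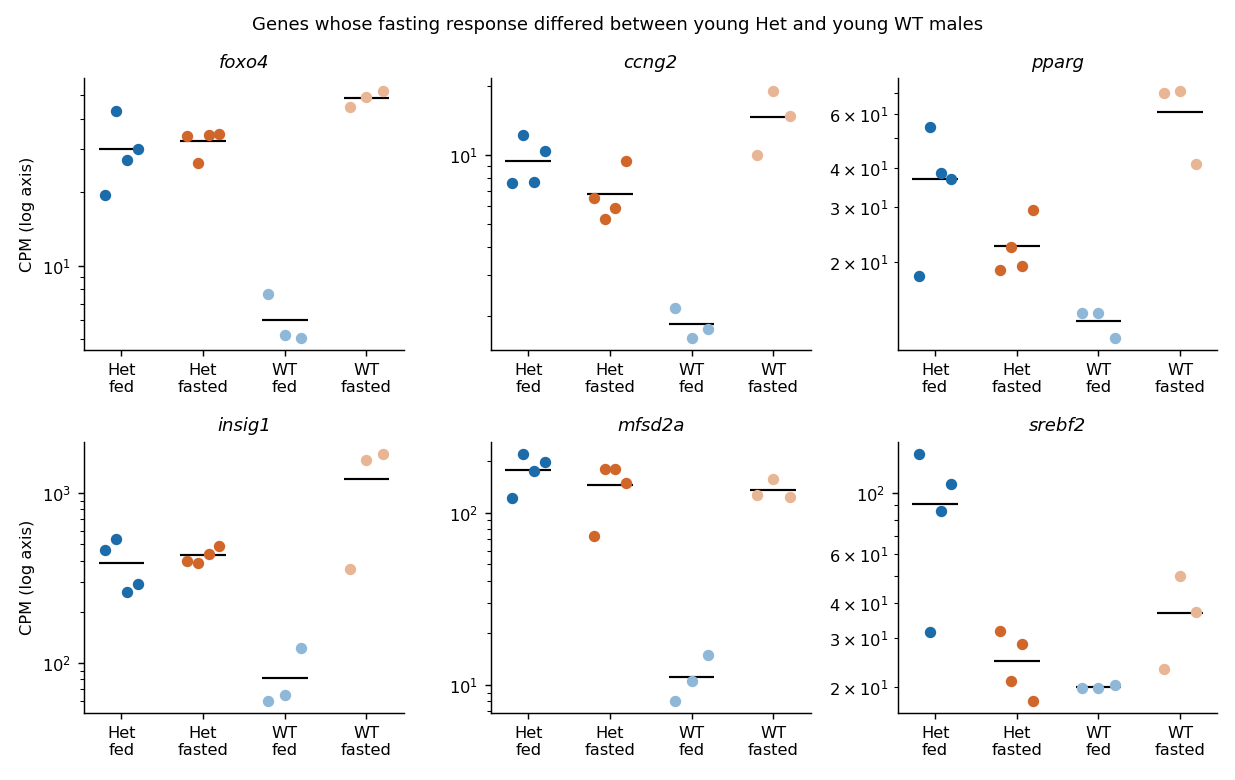
CPM (log axis) of 6 genes whose fasting response differed between young Het and young WT males; points are fish, horizontal lines arithmetic means. For foxo4, ccng2, insig1 and mfsd2a all fed Het fish lie above all fed WT fish; for srebf2 the fed Het fish lie above the fed WT fish, with fish 53 (31.6 CPM) nearest to them.

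bmp7, a secreted growth factor, was at 0.667, 0.655, 0.938 and 0.902 CPM in fed and 1.70, 2.58, 2.55 and 1.51 CPM in fasted Het fish (1.40 ± 0.48, adjusted p = 0.0502). In young WT it went from 2.81, 2.18 and 2.18 CPM to 1.2, 0.211 and 0.552 CPM, and the responses differed by 3.28 ± 0.74 (adjusted p = 0.0168). osgn1 differed by 3.64 (adjusted p = 0.00616), with 6.28, 7.37 and 4.83 CPM in fed WT against 0.667, 0.655, 0.245 and 0.586 CPM in fed Het males. cyp24a1 (LOC107385407), which degrades vitamin D hormone, had 180, 346, 158 and 63.4 CPM fed and 97.5, 12.5, 28.6 and 100 CPM fasted in Het, and rose in WT from 30.1, 18.2 and 51.3 CPM to 277, 469 and 843 CPM (difference -5.64, adjusted p = 0.022, kept in 8 of 14 fits without 1 fish).

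The response was also set against that of old Het males. Myeloid markers summed to 593 CPM in old fed fish 13 and 719 CPM in old fasted fish 26. In the other old Het fish they summed to 19.3 to 44.3 CPM. Islet markers summed to 70.0, 52.0 and 37.5 CPM in old fish 14, 25 and 27, and to 1.12 to 11.3 CPM in the other old Het fish. The part of these cells in the comparison was not tested. Of the young Het calls, 1655 were also called in old Het, 70.4% of the young list and 29.9% of the 5528 old calls (31.8% of genes tested; 15.4% higher, 16.3% lower), and 1643 had the same direction. The difference passed for 200 genes (1.15%), 138 more positive (0.793%) and 62 more negative (0.356%) in the young. That count ran from 58 without old fasted fish 25 to 428 without young fasted fish 38. For sterol synthesis 19 of 21 were lower in old Het as in young Het (medians -3.38 and -2.89), and 0 differences passed. With 1.15% of all genes passing, a list of 21 holds few passes in any case, so the 0 does not show equal responses. The fed old Het fish were split, with list means of 5.81 and 7.09 log2 CPM in fish 11 and 14. Fish 12 and 13 had 4.07 and 4.19 log2 CPM, and the fasted old Het fish 2.40 to 2.59. Fatty acid oxidation differed: 17 of 28 were lower in old Het (median -0.95), and 7 of the 28 responses were more positive in the young. etfa was an example, falling from 79.8, 81.9, 89.5 and 86.7 CPM to 25.5, 28.1 and 33.8 CPM in old Het (difference 1.09 ± 0.19, adjusted p = 0.00257). cpt1b and angptl4 rose in young and fell in old Het. In old Het cpt1b went from 9.11, 14.2, 11.2 and 13.2 CPM to 4.59, 3.85 and 5.97 CPM (difference 3.48 ± 0.59, adjusted p = 0.00257), and angptl4 from 8.15, 13.1, 8.82 and 11.5 CPM to 2.04, 1.60 and 3.86 CPM (difference 4.52 ± 0.92, adjusted p = 0.0104).

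Other genes moved in old Het and did not pass in young Het males. igfbp1a, a circulating binder of insulin-like growth factors, had 49.9, 26.0, 24.3 and 27.0 CPM in fasted young fish, within the fed range, and 1239, 1250 and 490 CPM in fasted old fish against 12.4, 18.5, 22.9 and 8.04 CPM in fed old fish (difference -6.01 ± 1.35, adjusted p = 0.0191). leap2 (LOC107377007), which in mammals encodes a liver peptide that opposes ghrelin, had 41.4, 36.6, 65.5 and 54.2 CPM in fed and 5.45, 41.5, 34.4 and 55.6 CPM in fasted young Het fish (-0.53 ± 0.73, adjusted p = 0.709). The single low value was that of fish 38. In old Het it went from 37.4, 40.0, 91.3 and 91.6 CPM to 0.223, 0.593 and 1.5 CPM (difference 5.85 ± 1.23, adjusted p = 0.0132). ddit4, an inhibitor of mTOR signaling, was at 12.3, 17.1, 7.79 and 4.47 CPM fed and 4.42, 1.67, 1.37 and 5.66 CPM fasted in young Het and rose in old Het from 2.76, 6.92, 3.18 and 3.82 CPM to 49.8, 11.3 and 26.2 CPM (difference -4.48 ± 0.92, adjusted p = 0.0104). cyp24a1 also differed from old Het, by -6.35 (adjusted p = 0.00879), and bmp7 by 4.34 (adjusted p = 0.00302). Both kept these calls in all 15 fits without 1 fish.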

How the data were processed

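Polyadenylated RNA of each liver was sequenced as 75-cycle single-end reads, per the labels' protocols. Tools named in the submitters' processing notes were FastQC 0.11.8, Trim Galore 0.6.4, cutadapt 3.4 and STAR 2.7.6a. The genome build, the counting step and its strand setting are not given in the sources used here, so genes with overlapping, antisense or near-identical partners are uncertain. The authors deposited raw counts per gene and library. Symbols of 5241 of 14280 LOC identifiers were taken from the RefSeq table of assembly NfurGRZ-RIMD1, by identifier.

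Groups followed the sample titles. From the counts, edgeR 4.0.16 in R 4.3.3 computed TMM-scaled CPM and its quasi-likelihood test (glmQLFit, glmQLFTest) over all livers with 1 mean per group. Genes passed filterByExpr with a minimum count of 10 and a minimum total of 15, and the prior count behind log2 CPM was 2. Differences between responses were interaction contrasts of that fit. The p-values measure the spread between fish, estimated over all 41 livers, which include females and old WT males. Labels do not say whether fish shared a tank or clutch. A tank or clutch that went with feeding would not be covered by the p-values. Pairs of fish within the young Het groups differed by more than counting noise (chi-square per degree of freedom at least 32.2). The highest value was 181, for fasted fish 38 and 41. Alternatives were RLE size factors, no filter, a fit of the compared groups alone, DESeq2 1.42.0, and leaving out each fish. The scripts were tested on simulated data with known changes. At a change of 1 on the log2 scale, 23 of 55 genes were recovered for the fasting response. Recovery at that size was 0 of 55 for the difference from young WT and 7 of 55 for that from old Het. At a change of 3 these were 57, 56 and 57 of 57. The simulation changed far fewer genes than were called in the fasting response. Its noise was drawn gene by gene, with no fish set apart from its group. Recovery in the real data can therefore differ. Gene lists and the groups compared were chosen with earlier results of these data known.

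Genes were named from the 15 largest called rises and falls with a symbol, an average log2 CPM of at least 1 and no overlap between groups, from up to 6 called genes of each list, from anchor genes given whatever their result, from the 5 largest differences of response in each direction, and from the 5 most abundant genes. Single genes outside that rule were chosen after their values were seen.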

Additional observations from a re-analysis of the deposited data

Results flagged for a closer look

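In 276 groups of 4 fish, each the fed or the fasted young Het males for 1 named gene, 19 had a highest or lowest fish that was far from the others on the log2 CPM scale, by the critical value of Dixon's gap-to-range ratio. Chance flags about 1 group in 20. Fed fish 53 was the lowest for mvk (1.24 CPM), fdft1 (18.3 CPM), uhrf1 (5.53 CPM) and pole (1.16 CPM). Fed fish 52 was the highest for hspa5 (532 CPM), manf (155 CPM) and eif2ak3 (55.6 CPM) and the lowest for scap (100.5 CPM) and nol11 (25.9 CPM). Fed fish 54 was the lowest for osgn1 (0.245 CPM). Fasted fish 38 was the highest for pdk3 (11.2 CPM), igfbp1a (49.9 CPM) and nr1h3 (126 CPM) and the lowest for uhrf1 (0.482 CPM) and for pygl, liver glycogen phosphorylase (295 CPM). Fasted fish 41 was the lowest for fdps (1.32 CPM), cdca7 (0.233 CPM) and psmc4 (4.26 CPM), and fasted fish 39 for foxo4 (26.4 CPM).

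A difference in the fasting response, tested as an interaction in edgeR, passed for 28 named cases. Relative to young WT males it was -5.04 for aacs, -4.79 for mvk, -5.64 for lss, -2.89 for acat2, -2.34 for idi1, -4.54 for fdft1 and -3.79 for csgr16h14orf1. It was -2.76 for srebf2, -1.63 for ldlr, -3.73 for insig1, -2.92 for foxo4, -3.48 for ccng2, -2.95 for pparg, -3.89 for mfsd2a, -3.33 for foxo1 and -5.64 for cyp24a1. osgn1 (3.64) and bmp7 (3.28) differed in the positive direction. The acat2 difference passed narrowly (adjusted p = 0.0497) and kept its call in 1 of 14 fits without 1 fish. Relative to old Het males the difference was 4.52 for angptl4, 3.48 for cpt1b, 0.95 for pdk4, 1.09 for etfa, 5.85 for leap2, 4.34 for bmp7 and 1.29 for igfals. It was -6.01 for igfbp1a, -6.35 for cyp24a1 and -4.48 for ddit4.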

How the results depend on the processing

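The fasting response of young Het males called 2352 genes, and 2413 with RLE size factors, 1950 with no filter, 3041 with only the groups compared and 2918 with DESeq2. Leaving out 1 fish gave 1357 (without fasted fish 38) to 2372 (without fasted fish 41), and 1501, 1466 and 1538 without fed fish 52, 54 and 55. Leaving out fasted fish 38 and 41 together, chosen after the data were seen, gave 768. The difference from young WT, 267 genes, became 174 with no filter, 564 with only the groups compared and 553 with DESeq2. Leaving out 1 fish moved it from 98 (WT fasted fish 32) to 336 (fed fish 52). It was 126, 113 and 115 without WT fed fish 45, 46 and 47, 129 without WT fasted fish 33, 168, 163 and 156 without Het fed fish 53, 54 and 55, and 140 and 151 without Het fasted fish 39 and 40. The difference from old Het, 200 genes, became 487 with only the groups compared and 518 with DESeq2. Leaving out 1 fish moved it from 58 (old fasted fish 25) to 428 (young fasted fish 38). It was 93 without old fasted fish 26, 98 and 127 without young fed fish 53 and 54, and 65 and 109 without young fasted fish 39 and 40. The cause of these shifts was not tested. Of 111 named genes called, 75 kept their call in all 8 fits without 1 fish. Changes of sign occurred only in genes that were not called. insig1 ran from -0.0050 to 0.34 over the fits without 1 fish, srebf1 from -0.31 to 0.0033, foxo4 from -0.0466 to 0.34, foxo1 from -0.46 to 0.33 and igfbp1a from -0.35 to 1.33. igfbp1a was 0.0085 with RLE size factors, 0.0144 with only the groups compared and 0.0093 with DESeq2, and mfsd2a was 0.0118 without fasted fish 38 and 41. The 28 named differences gave 422 of 514 settings on the same side of the threshold and 0 reversals. RLE scaling moved the median of all genes to 0.026 from 0.017. No paired analysis was possible because fish numbers do not repeat between the fed and fasted livers. With 4 fish a group, small changes can go uncalled, as they did in the simulated data. The parts of spread between fish, depth and count level in this were not tested.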
